A study of Mus musculus with 6 samples.

Results

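The interleukin-1 (IL-1) family was followed here through 10 genes, chosen by symbol from the 55385 genes in the tables: the ligand genes Il1a, Il1b, Il18 and Il33, the receptor genes Il1r1, Il1rap and Il1rl1, and the antagonist genes Il1rn, Il1r2 and Il18bp. All 10 were found, and all 10 passed the filter on low counts that left 19427 genes for testing. RNA came from tumors of female NeuT/ATTAC mice, which carry an activated rat ErbB2[V664E] gene driven by the mouse mammary tumor virus (MMTV) promoter together with an FKBPv-caspase-8 fusion gene driven by the FABP4 promoter, so that the compound AP20187 removes part of the mammary fat, which fibrotic tissue replaces. The protocol gave AP20187 at 0.4 mg/kg intraperitoneally, 3 times per week, from 6 weeks of age. The DMHCA group also received, from 8 weeks of age, a diet with 0.05% DMHCA, a liver X receptor (LXR) agonist, corresponding to about 100 mg/kg. The control label names AP20187 and vehicle without saying whether both were given, and the labels call the tissue mammary gland fibrosis where the methods speak of tumors. FABP4 is also made by cells other than adipocytes, such as macrophages and endothelial cells, and the age at which tumors were taken for sequencing is not given in the sources used here.

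IL-1α and IL-1β signal through IL-1R1, which needs the accessory protein IL-1RAP to recruit MYD88 and activate NF-κB. The pathway is held back by the receptor antagonist IL-1RN, which occupies IL-1R1 without signalling, and by the decoy receptor IL-1R2. IL-18, which promotes interferon-γ production, is neutralised by IL-18BP, and IL-33, an alarmin of stromal and epithelial cells, acts through ST2, the product of Il1rl1, which is made both as a membrane receptor and as a soluble decoy. In mammary tumors IL-1 is known as a product of myeloid and epithelial cells that acts on fibroblasts and other stromal cells.

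Of 6 libraries, with 46358654 to 63420620 expected counts each, DMHCA libraries 1 and 3 differed far less than any other pair, with a biological coefficient of variation of 0.0327 against 0.376 to 0.579 for the other pairs within a group. They were summed and counted as 1 sample, named DMHCA 1+3, which leaves 3 control and 2 DMHCA samples. The paper describes the samples as tumors of separate mice. Control 3 stood apart from the other controls by its lymphoid and fat markers, with summed levels of 251 TPM (transcript abundance per length and library, as RSEM gives it) for the B cell list against 0.94 and 29.3 in the other controls, and 914 TPM for the adipocyte list against 123 and 203. The luminal epithelial list summed to 2847 to 3475 TPM in controls and 3934 to 4315 TPM with DMHCA, carried by Krt8, Krt18 and Epcam, while Krt19 ran from 1.51 to 435 TPM. Normalized counts below are scaled to the mean effective size of the 5 samples, and values for the 5 samples are given in the order control 1, 2 and 3, then DMHCA 2 and DMHCA 1+3.

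After DMHCA treatment the mean count was lower for 7 of the 10 genes and higher for 3. Il1b, Il1rn, Il1r1, Il1r2 and Il18 were lower in both DMHCA samples than in all 3 controls, whereas Il1a, Il1rap, Il18bp, Il33 and Il1rl1 overlapped between the groups. In TPM Il1r2 overlapped as well, which left 4 members lower without overlap, and the mean was again lower for 7. Among all genes tested, 12.2% were lower without overlap and 13.8% were higher without overlap in normalized counts, against 6.97% and 20.3% in TPM. A lower mean was found for 52.0% of all genes in normalized counts and for 39.4% in TPM. By edgeR's quasi-likelihood test 4 members, Il1b, Il1rn, Il1r1 and Il18, had an unadjusted p under 0.05, all lower, against 4.08% of all genes in that direction, and 0 members were higher with such a p, against 3.53% of all genes. The 4 members became 2 without control 1, 2 without control 2 and 1 without DMHCA 2. No member passed after Benjamini-Hochberg adjustment, and neither did any other gene (0 of 19427, 0.0%, with a smallest adjusted p of 0.644), while 1478 genes (7.61%) had an unadjusted p under 0.05. DESeq2 called 246 genes (1.26%) at an adjusted p under 0.05 on the same 5 samples, of which 1 was a member, Il1rn, and 839 genes (3.9%) on all 6 libraries, of which 3 were members, Il1rn, Il1r1 and Il18. The median log2 fold change was -0.88 over the members and -0.03 over all genes tested.

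**Figure D1:**
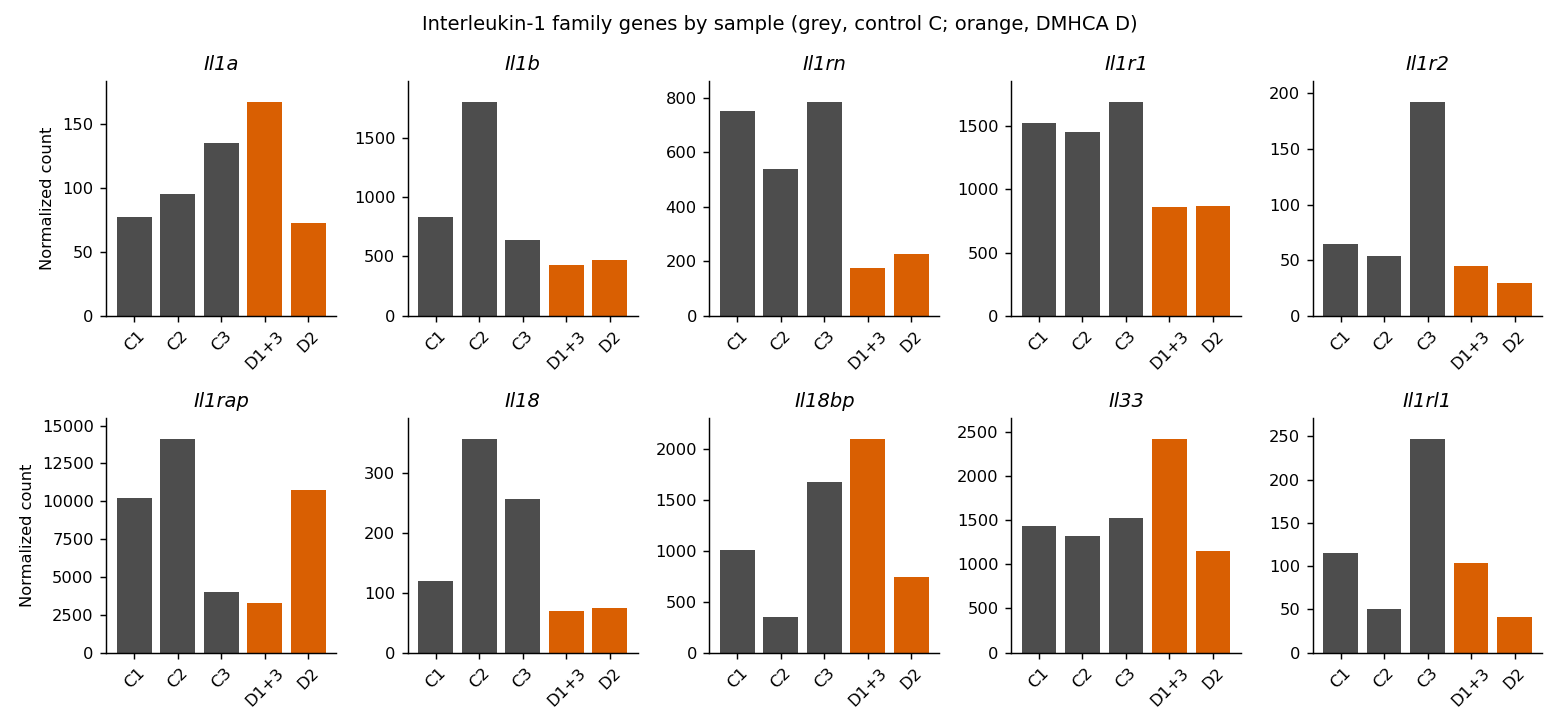
Normalized counts (vertical axes, linear from 0, 1 scale per gene) of the 10 genes in 5 samples, with grey bars for control samples (C1 to C3) and orange bars for DMHCA samples (D1+3 is the sum of 2 nearly identical libraries, D2 a single library). Both orange bars lie below all grey bars for Il1b, Il1rn, Il1r1, Il1r2 and Il18, and Il1rn runs from 539 to 784 in controls against 175 and 227 with DMHCA.

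Among the ligands, Il1b was the more abundant IL-1 gene. Il1b, on GRCm38 chromosome 2 from 129364570 to 129371139 on the minus strand, had 834, 1797, 642, 467 and 426 normalized counts. Both DMHCA samples lay below the lowest control, and the controls themselves spanned a wide range, led by control 2. The means were 1091 ± 619 (SD, n = 3) and 447 ± 29.0 (SD, n = 2), a log2 fold change of -1.29 (SE 0.53, edgeR adjusted p = 0.644). Without control 2 the log2 fold change was -0.72. Reads of Il1bos, an antisense gene sharing exon sequence with Il1b, were few, at 4 to 11 counts per library.

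Il1a, the other IL-1 ligand gene, on chromosome 2 from 129299610 to 129309972 on the minus strand, had 77.4, 95.6, 135, 72.8 and 167 normalized counts. The highest and the lowest sample were both DMHCA samples, so the groups overlapped fully. The means were 103 ± 29.4 (SD, n = 3) and 120 ± 66.9 (SD, n = 2), with a log2 fold change of 0.23 (SE 0.59, edgeR adjusted p = 0.92). The antisense gene Gm14023 shares exon sequence with Il1a and had 8 to 35 counts per library. Without a stated strand setting, reads in the shared sequence cannot be told apart between the 2 genes.

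Il18, on chromosome 9 from 50554827 to 50581840 on the plus strand, had 119, 357, 257, 75.3 and 69.9 normalized counts. The DMHCA samples lay close together and below every control, of which control 1 was the lowest. The means were 244 ± 120 (SD, n = 3) and 72.6 ± 3.83 (SD, n = 2), with a log2 fold change of -1.75 (SE 0.63, edgeR adjusted p = 0.644, DESeq2 adjusted p = 0.0155 on 6 libraries). On the 5 samples the DESeq2 adjusted p was 0.136.

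Il33, on chromosome 19 from 29925114 to 29960718 on the plus strand, had 1436, 1323, 1531, 1153 and 2421 normalized counts. The controls lay close together, with DMHCA 2 below them and DMHCA 1+3 above them. The means were 1430 ± 104 (SD, n = 3) and 1787 ± 897 (SD, n = 2), with a log2 fold change of 0.32 (SE 0.37, edgeR adjusted p = 0.801).

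The promoter windows of Il1b and Il18, the ligand genes whose groups did not overlap, and of Il1rn, the receptor antagonist gene, are shown so that the shared and differing elements of these genes can be seen, from RefSeq on GRCm38.p6, each 300 bases long from 250 before to 50 after the annotated start and written on the strand of the gene. Capitals mark matches, on either strand, to the motifs searched: an NF-κB site, the AP-1 element TGANTCA, the LXR-type direct repeat DR4 (AGGTCA repeated after 4 bases), the single AGGTCA element, and TATAAA. Il1b lies at chr2:129371090-129371389 on the minus strand, the first Il1rn window at chr2:24336610-24336909 on the plus strand, and Il18 at chr9:50554450-50554749 on the plus strand. The Il18 window follows the RefSeq start and ends before the gene start given above for Il18, 50554827.
Il1b: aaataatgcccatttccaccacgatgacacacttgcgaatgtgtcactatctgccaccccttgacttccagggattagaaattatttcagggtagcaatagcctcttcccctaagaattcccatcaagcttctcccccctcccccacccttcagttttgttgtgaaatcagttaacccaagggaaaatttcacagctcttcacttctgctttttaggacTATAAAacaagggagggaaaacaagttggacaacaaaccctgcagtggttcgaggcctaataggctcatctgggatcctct
Il1rn: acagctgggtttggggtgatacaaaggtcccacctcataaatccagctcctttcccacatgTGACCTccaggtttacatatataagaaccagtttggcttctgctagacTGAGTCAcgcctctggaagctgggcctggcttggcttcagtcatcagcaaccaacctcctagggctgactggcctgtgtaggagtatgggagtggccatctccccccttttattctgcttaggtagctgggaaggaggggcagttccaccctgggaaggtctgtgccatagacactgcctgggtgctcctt
Il18: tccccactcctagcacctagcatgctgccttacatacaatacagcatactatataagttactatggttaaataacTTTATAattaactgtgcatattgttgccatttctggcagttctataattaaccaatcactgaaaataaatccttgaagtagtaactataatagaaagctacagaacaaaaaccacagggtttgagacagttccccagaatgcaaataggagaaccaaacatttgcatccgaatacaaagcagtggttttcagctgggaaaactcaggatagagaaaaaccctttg
The Il1b window held TATAAA 31 bases before the start. The Il1rn window held an AP-1 match 141 bases before the start and an AGGTCA match on the opposite strand 189 bases before it, and the Il18 window held a TATAAA match on the opposite strand. The DR4 repeat was in none of the 15 windows of the 10 genes, and it was in 0.0152% of 32851 RefSeq promoter windows of this length. The NF-κB match occurred in 1 member window, of Il1r1, and in 4.51% of all windows, AP-1 in 7.81%, AGGTCA in 16.3% and TATAAA in 13.6%. A match is a description of these letters only, and no match says nothing about binding elsewhere. The paper lists Il1rn among genes containing an LXR response element, on the basis of an earlier publication.

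Il1rn, the receptor antagonist gene, was lower in both DMHCA samples than in every control. It lies on chromosome 2 from 24336853 to 24351494 on the plus strand and had 753, 539, 784, 227 and 175 normalized counts. All 3 controls were above both DMHCA samples by a wide margin, with 474 to 652 expected counts per control library against 140 to 187 per DMHCA library, DMHCA 1 and 3 counted separately. The means were 692 ± 133 (SD, n = 3) and 201 ± 37.1 (SD, n = 2), 3.45-fold lower, with a log2 fold change of -1.78 (SE 0.43, edgeR unadjusted p = 0.00489, adjusted p = 0.644). DESeq2 gave an adjusted p of 0.00269 on the 5 samples and 1.15e-05 on the 6 libraries. The study itself picked Il1rn from these libraries, so this is no independent observation. In TPM, which is per length, Il1rn was at 8.55, 4.66, 9.61, 3.64 and 2.7.

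The mean length of Il1rn transcripts, weighted by RSEM's isoform estimates, was 2097, 2049, 1816, 1616 and 1554 bases. Both DMHCA samples were below all controls, but the nearly identical libraries DMHCA 1 and 3 were 264 bases apart, at 1422 and 1686, which exceeds the gap between the groups. The annotation lists 6 Il1rn transcripts of 321 to 2554 bases. Il1b gave 1338, 1344, 1346, 1332 and 1319 bases, a span smaller than that of Il1rn.

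Among the receptors, Il1r1 was the most even gene. Il1r1, the signalling receptor, on chromosome 1 from 40225080 to 40317257 on the plus strand, had 1525, 1451, 1686, 870 and 858 normalized counts. In normalized counts each group was tight and the groups were well apart. In TPM the controls spread more and control 2 was close to DMHCA 2, at 7.1, 4.9, 7.25, 4.26 and 3.84, without overlap. The means were 1554 ± 120 (SD, n = 3) and 864 ± 8.76 (SD, n = 2), 1.8-fold lower with DMHCA, a log2 fold change of -0.85 (SE 0.28, edgeR unadjusted p = 0.0204, adjusted p = 0.644). DESeq2 gave an adjusted p of 0.215 on the 5 samples and 0.0345 on the 6 libraries.

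Il1r2, the decoy receptor, on chromosome 1 from 40074079 to 40125231 on the plus strand, had 64.7, 53.5, 192, 29.1 and 45.2 normalized counts. Control 3 was far above the other controls, and the highest DMHCA sample was only just below control 2. The means were 103 ± 77.0 (SD, n = 3) and 37.2 ± 11.3 (SD, n = 2), with a log2 fold change of -1.47 (SE 0.76, edgeR adjusted p = 0.648). In TPM the groups overlapped, at 1.42, 0.81, 3.55, 0.56 and 0.835.

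Il1rap, the accessory receptor shared by IL-1 and IL-33 signalling, on chromosome 16 from 26581704 to 26730117 on the plus strand, was the most abundant member, with 10249, 14114, 3995, 10717 and 3286 normalized counts. Control 3 and DMHCA 1+3 were low, and the other 3 samples were high, so the split did not follow treatment. The means were 9453 ± 5106 (SD, n = 3) and 7001 ± 5254 (SD, n = 2), with a log2 fold change of -0.43 (SE 0.66, edgeR adjusted p = 0.854). The antisense gene Gm20319, which shares exon sequence with Il1rap, had 3 to 18 counts per library.

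Il1rl1, the gene of ST2, the IL-33 receptor, on chromosome 1 from 40429570 to 40465415 on the plus strand, had 115, 50.1, 247, 41.3 and 104 normalized counts. Control 3 was highest, DMHCA 2 lowest, and the groups overlapped. The means were 137 ± 100 (SD, n = 3) and 72.7 ± 44.5 (SD, n = 2), with a log2 fold change of -0.91 (SE 0.82, edgeR adjusted p = 0.755). Its mean transcript length was 3991, 2909, 4247, 1927 and 4246 bases, where the annotation lists coding transcripts of 5053 and 5302 bases beside shorter ones of 2661 and 1216 bases. The shortest values belonged to control 2 and DMHCA 2, the samples with the fewest Il1rl1 reads (44.02 and 34.0 expected counts). These were also the samples with the lowest summed mast cell markers once Kit, which dominates that list, was left out, at 16.8 and 7.02 TPM against 27.8 to 43.0 in the others. Leaving out Kit was decided after the values were seen, and the part of mast cells in the Il1rl1 levels was not tested.

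Il18bp, the IL-18 antagonist gene, on chromosome 7 from 102014885 to 102018690 on the minus strand, had 1010, 347, 1675, 743 and 2101 normalized counts. The groups overlapped, with control 2 lowest and DMHCA 1+3 highest. The means were 1011 ± 664 (SD, n = 3) and 1422 ± 960 (SD, n = 2), with a log2 fold change of 0.49 (SE 0.71, edgeR adjusted p = 0.841). Numa1 shares exon sequence with Il18bp on the opposite strand and had 4296 to 14339 counts per library, lowest in control 2 as well. Reads in the shared sequence cannot be told apart between the 2 genes without a stated strand setting.

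**Figure D2:**
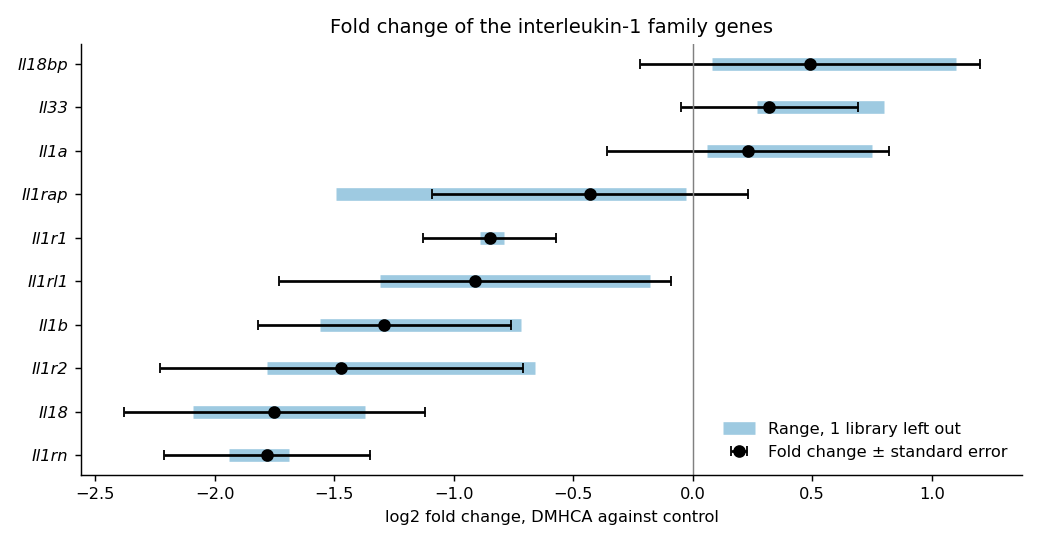
Log2 fold change of DMHCA against control (horizontal axis) for each gene, with black points and bars for the edgeR estimate ± standard error and blue bars for the range when 1 library at a time was left out. Il1r1 and Il1rn had the narrowest ranges, -0.89 to -0.79 and -1.94 to -1.69, and Il1rap a wide one, from -1.49 to -0.03.

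In bulk tissue, fewer cells of a type and less RNA per cell cannot be told apart. Macrophage markers, known to mark a main source of Il1b and Il1rn, had summed levels of 777 to 948 TPM in controls and 661 to 828 TPM with DMHCA. The sums overlapped, while 7 of the 8 genes had a lower mean in normalized counts and 5 in TPM, with C1qa and Itgam lower without overlap in normalized counts and C1qa also in TPM. The neutrophil list gave 33.5 to 59.0 TPM in controls and 12.1 and 216 TPM with DMHCA, and 18.6 to 31.0 TPM against 7.05 and 17.2 TPM without S100a8, a gene left out after the values were seen because it made most of the sum in DMHCA 2. The neutrophil marker Ly6g had 3 or fewer counts in every library. The adipocyte list did not overlap, at 123 to 914 TPM in controls and 68.7 to 68.8 TPM with DMHCA, and all 5 of its genes were lower without overlap in normalized counts. The NK cell sums, at 2.36 to 14.7 and 1.36 to 1.9 TPM, were separated by Klrb1c, and the other 3 genes of that list overlapped. The endothelial sums were 28.2 to 45.3 TPM in controls and 47.7 to 55.3 TPM with DMHCA, with Cdh5 and Tie1 higher without overlap and Pecam1 and Kdr overlapping in normalized counts. Of the luminal epithelial genes Krt8 was higher without overlap in normalized counts and in TPM, Krt18 only in TPM, and Epcam and Krt19 overlapped on both scales. All 4 B cell markers had a lower mean with an unadjusted p under 0.05 by edgeR and a median log2 fold change of -6.64, but overlapped through control 2, with sums of 0.94 to 251 and 1.73 to 1.97 TPM. All 6 basal or squamous markers had a lower mean (median log2 fold change -2.67), 2 of them, Krt6a and Trp63, without overlap in normalized counts, with sums of 5.85 to 57.0 and 8.53 to 13.6 TPM. Fibroblast markers, which mark cells that express Il1r1, overlapped at 194 to 866 and 365 to 413 TPM. The part of these cell types in the lower Il1b, Il1rn, Il1r1, Il1r2 and Il18 counts was not tested.

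Levels between genes were compared in TPM. Averaged over the 5 samples, Il1rap was highest at 41.9 TPM, followed by Il18bp at 19.4, Il33 at 13.8, Il1b at 13.8, Il1rn at 5.83, Il1r1 at 5.47, Il18 at 5.16, Il1r2 at 1.44, Il1a at 1.24 and Il1rl1 at 0.655. The order held only in blocks. Il1b, Il18bp and Il33 did not differ beyond their spread in controls, at 17.2 ± 7.04, 16.6 ± 11.9 and 11.9 ± 2.45 TPM (SD, n = 3), and Il1b was the lowest of them in both DMHCA samples, at 8.62 ± 1.03 TPM (SD, n = 2). Il1rap averaged 43.5 ± 20.9 TPM in controls and Il18bp 16.6 ± 11.9 TPM (SD, n = 3), yet Il18bp exceeded Il1rap in control 3 (27.8 against 19.5 TPM) and in DMHCA 1+3 (34.6 against 16.9 TPM). Il1rn, Il1r1 and Il18, at 7.61 ± 2.61, 6.42 ± 1.32 and 7.01 ± 2.62 TPM in controls, did not differ beyond their spread. In both DMHCA samples Il1r1 was highest of these and Il18 lowest. Their means were 4.05 ± 0.297 TPM for Il1r1, 3.17 ± 0.665 for Il1rn and 2.38 ± 0.205 for Il18 (SD, n = 2). Il1r2, Il1a and Il1rl1 were the 3 lowest members in each of the 5 samples.

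The balance between antagonist and ligand or receptor was compared as 4 ratios of TPM. Il1rn to the sum of Il1a and Il1b was 0.514, 0.182, 0.767, 0.354 and 0.275, so that both DMHCA samples lay within the control range. The mean log2 ratio was -1.27 ± 1.07 (SD, n = 3) in controls and -1.68 ± 0.26 (SD, n = 2) with DMHCA, a difference of -0.41 (two-sided exact permutation p = 0.7, adjusted over the 4 ratios 0.7). Il1rn and Il1b were thus both lower in count while their ratio was not resolved from the spread. Without control 3 the difference was 0.03, with the opposite sign, and with normalized counts in place of TPM it was -0.82.

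Il18bp to Il18 was 4.47, 0.492, 3.21, 4.89 and 15.4. Both DMHCA samples were above all controls, DMHCA 2 only just. Il18 alone was also without overlap, and the exon sequence that Il18bp shares with Numa1 limits this ratio. The difference of the mean log2 ratio was 2.18 (0.94 ± 1.72, SD, n = 3, against 3.12 ± 1.17, SD, n = 2; two-sided exact permutation p = 0.2, adjusted 0.7). Il1r2 to Il1r1 was 0.201, 0.167, 0.49, 0.133 and 0.219, a log2 difference of -0.57 (two-sided exact permutation p = 0.6, adjusted 0.7). Il1rl1 to Il33 was 0.0505, 0.0342, 0.0921, 0.0487 and 0.0254, a log2 difference of -0.62 (two-sided exact permutation p = 0.4, adjusted 0.7), or -1.01 with normalized counts in place of TPM. With 3 against 2 samples the smallest p possible was 0.1.

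**Figure D3:**
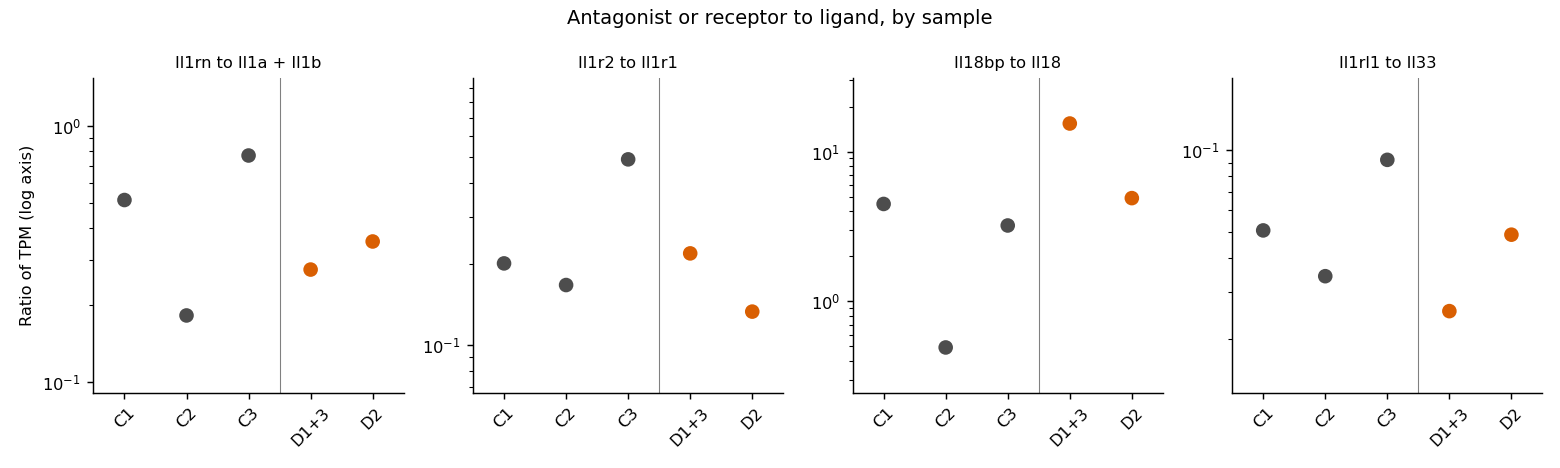
Ratios of TPM on log axes for 4 pairs of antagonist or receptor to ligand or receptor, with grey points for control samples and orange points for DMHCA samples. The groups separate only for Il18bp to Il18, where the orange points lie at 4.89 and 15.4 and the grey points at 0.492 to 4.47. Il18bp shares exon sequence with Numa1.

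A cluster of 6 receptor genes of the family lies on chromosome 1, in the order Il1r2, Il1r1, Il1rl2, Il1rl1, Il18r1 and Il18rap, over 478 kb from 40074079 to 40551705. All 6 had a lower mean count with DMHCA, as did 52.0% of all genes tested, and 3 did not overlap in normalized counts (Il1r2, Il1r1 and Il18r1), against 12.2% of all genes lower without overlap. Of these 3, Il1r2 overlapped in TPM. Il18r1, the ligand-binding IL-18 receptor chain, had 2787, 2766, 2894, 1034 and 184 normalized counts. The controls were nearly equal, and DMHCA 1+3 was far below DMHCA 2. The means were 2816 ± 68.3 (SD, n = 3) and 609 ± 601 (SD, n = 2), a log2 fold change of -2.21 (SE 0.70, edgeR unadjusted p = 0.0169, adjusted p = 0.644, DESeq2 adjusted p = 0.086 on the 5 samples and 0.00487 on the 6 libraries). T and NK cell markers, which mark cells known to carry this receptor, were at 1.41 to 144 and 2.36 to 14.7 TPM in controls and at 4.02 to 7.37 and 1.36 to 1.9 TPM with DMHCA, and their part in the Il18r1 counts was not tested. Il18rap, its accessory chain, had 208, 355, 510, 228 and 45.2 normalized counts and overlapped between the groups. Il1rl2, the IL-36 receptor, had 3086, 3161, 1695, 2177 and 1168 and overlapped as well.

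**Figure D4:**
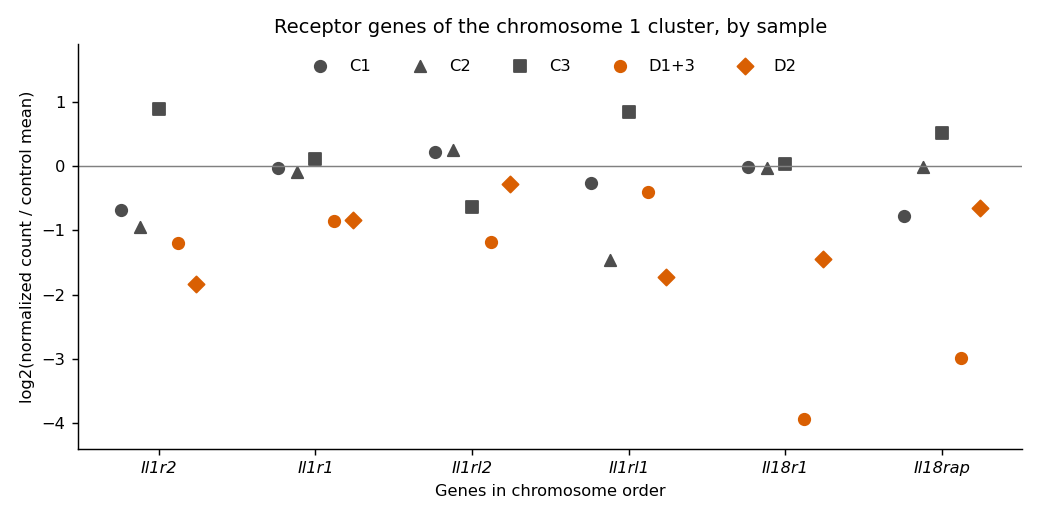
Log2 of the normalized count over the control mean (vertical axis) for the 6 receptor genes in chromosome order, with grey symbols for control samples and orange symbols for DMHCA samples. The Il1r1 and Il18r1 controls lie close together, and Il18r1 in DMHCA 1+3 is the lowest point (184 counts against a control mean of 2816).

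The other IL-1 family ligands and receptors comprised 11 genes, of which 6 were tested. The mean was lower for 4 and higher for 2, and 1 was lower with an unadjusted p under 0.05 (4.08% of all genes tested), Il18r1, which the study also picked from these libraries. Il1f9, which encodes IL-36γ, did not overlap in normalized counts, with a highest DMHCA count of 27.9 against a lowest control count of 29.6, but overlapped in TPM, at 0.32 to 0.61 in controls and 0.38 and 0.44 with DMHCA. Il1f5, which encodes the IL-36 receptor antagonist, had 20.8, 0, 11.7, 18.2 and 48.2 normalized counts.

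Inflammasome and processing genes, whose products mature IL-1β and IL-18, were lower on average in 10 of 12 tested and higher in 2, where 52.0% of all genes tested had a lower mean (in TPM 7 were lower and 5 higher, against 39.4% lower of all genes), with none at an unadjusted p under 0.05 in the edgeR fit and a median log2 fold change of -0.41. In normalized counts Casp8, Nlrp3 and Nlrc4 were lower without overlap, as were 12.2% of all genes tested, but in TPM all 3 overlapped, and the Nlrp3 mean was higher with DMHCA (0.81 against 0.713 TPM). Casp4, which encodes the caspase of the non-canonical inflammasome, had a log2 fold change of -1.20, Aim2 -1.20, Gsdmd, the pore-forming protein, -1.14 and Pycard, the adaptor ASC, 0.78. The transgene also carries a caspase-8 sequence, and whether its reads were counted in Casp8 was not tested.

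Receptor signalling genes were higher on average in 14 of 19 and lower in 5, with a median of 0.2, where 52.0% of all genes tested had a lower mean. In TPM 14 were again higher and 5 lower, where 39.4% of all genes had a lower mean. In TPM 21.1% of the list was higher without overlap, against 20.3% of all genes. Tollip, Irak1 and Irak4 were higher without overlap in normalized counts, 3 of 19 genes against 13.8% of all genes tested. Irak1, a kinase of the receptor complex, had 4615 to 6945 normalized counts in controls and 7293 and 7821 with DMHCA, and Irak4, another such kinase, had 951 to 1024 against 1150 and 1156. Tollip, an inhibitor of IL-1 receptor signalling, had 4528, 2852, 4007, 6158 and 7165 normalized counts. Its means were 3795 ± 858 (SD, n = 3) and 6661 ± 712 (SD, n = 2), a log2 fold change of 0.81 (SE 0.28, edgeR unadjusted p = 0.0255, adjusted p = 0.644). Nfkbia, the NF-κB inhibitor gene that NF-κB itself induces, had 4093, 4162, 9877, 2478 and 3926 normalized counts and a log2 fold change of -0.92. It was lower without overlap in normalized counts, 1 of 19 genes against 12.2% of all genes tested, but overlapped in TPM. Traf6 was at 0.53 and Myd88 at -0.52, both overlapping.

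Genes known to be induced by IL-1 receptor signalling were lower on average in 18 of 20 and higher in 2, where 52.0% of all genes tested had a lower mean. Their median log2 fold change was -0.58 against -0.03 for all genes tested. In TPM 14 were lower on average and 6 higher, where 39.4% of all genes tested had a lower mean. Of the 20, 5 were lower with an unadjusted p under 0.05, against 4.08% of all genes tested, and 4 were lower without overlap in normalized counts, against 12.2%. Of these 4, Mmp3 and Ccl20 also did not overlap in TPM, whereas Il6 and Cxcl5 did. In TPM 10.0% of the list was thus lower without overlap, against 6.97% of all genes tested. The 5 with such a p were Mmp3, Ptgs2, Ptges, Csf3 and Ccl20, of which the study picked Mmp3, Ptgs2, Ptges and Csf3 from these libraries. Mmp3, a matrix metalloproteinase, had 2265, 2599, 4854, 611 and 900 normalized counts. Both DMHCA samples were below all controls, with means of 3239 ± 1408 (SD, n = 3) and 755 ± 205 (SD, n = 2), a log2 fold change of -2.10 (SE 0.44, edgeR unadjusted p = 0.00239, adjusted p = 0.644, DESeq2 adjusted p = 0.00757 on 5 samples). Csf3, the granulocyte growth factor gene, had 164, 1276, 44.1, 49.8 and 11.4, so that control 2 held most of the control mean and the groups overlapped. Ptgs2, which encodes cyclooxygenase-2, had 750, 189, 1375, 125 and 195 and overlapped through control 2. Ccl20, a chemokine gene, was near the limit of detection, at 15, 6.83, 15.6, 0 and 3.01.

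Type 2 genes known to follow IL-33 were lower on average in 6 of 8 and higher in 2, with 1 at an unadjusted p under 0.05 in each direction, against 4.08% lower and 3.53% higher of all genes tested. Areg, an epidermal growth factor receptor ligand, had 255, 1028, 947, 61.9 and 166 normalized counts, without overlap, and a log2 fold change of -2.70 (edgeR unadjusted p = 0.0135, adjusted p = 0.644, DESeq2 adjusted p = 0.0333 on 5 samples). Arg1, arginase-1, had 2691, 397, 2323, 1231 and 26975, so that its log2 fold change of 2.97 rested on DMHCA 1+3. Both were also picked by the study from these libraries. Interferon-γ genes known to follow IL-18 were lower on average in 4 of 6 and higher in 2, with none at an unadjusted p under 0.05 in the edgeR fit. Prf1, perforin, had 64.7, 6.83, 353, 15.8 and 21.1, and Tbx21 had 31.2, 3.41, 161, 7.28 and 12, both highest in control 3, the sample with the highest lymphoid markers.

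**Figure D5:**
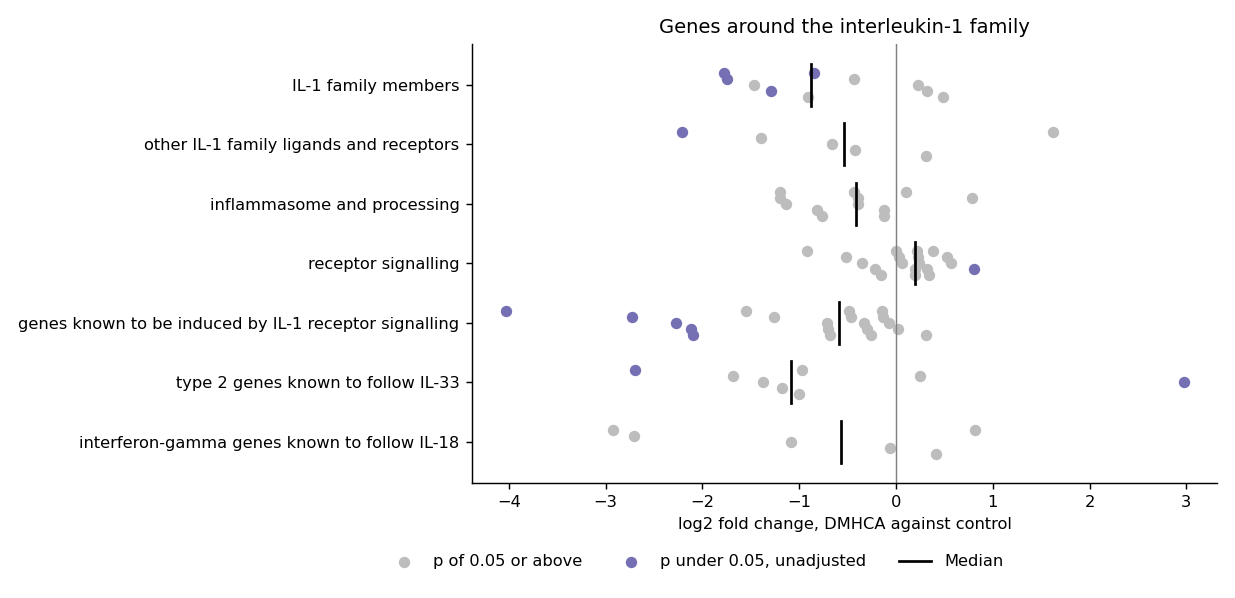
Log2 fold change of each tested gene (points), with black bars for list medians and purple points for an unadjusted p under 0.05 (edgeR). The genes known to be induced by IL-1 receptor signalling have a median of -0.58 and receptor signalling genes a median of 0.2.

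The genes whose pattern over the 5 samples was most like that of a member were found by the root mean square difference of centred log2 counts among 14158 genes with a mean of at least 100, for the 6 members whose own mean was at least 100 and whose highest sample was at least 4 times the lowest. Il1rn was the most isolated of them, with 2 genes within 0.25, and its nearest genes were Col16a1 at 0.171, Gprc5a at 0.242 and Mfge8 at 0.251. The nearest genes to Il1b were Gpx8 at 0.114, Cfap300 at 0.138 and Gm43268 at 0.162, among 30 within 0.25. Il18 was nearest to Exoc3l4 at 0.108, Rin3 at 0.195 and Dpysl2 at 0.224, with 5 within 0.25. Il18bp was nearest to Oasl1 at 0.113, Man2a2 at 0.114 and Isg15 at 0.136, with 18 within 0.25. Il1rap was nearest to Gm50253 at 0.131, with Ssc4d and Armcx6 both at 0.146, and Il1rl1 to Akna at 0.0937, Gm43672 at 0.119 and Adig at 0.137. With 5 samples such likeness is a description of these libraries.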

How the data were processed

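Libraries were made from RNA of snap-frozen tissue and sequenced as paired reads. Per the labels and the study's methods, the authors checked reads with FastQC 0.11.9, trimmed them with Cutadapt 2.9, and quantified genes with RSEM 1.3.1 and Bowtie2 2.4.1 against mm10, Ensembl release 99. The deposited expected counts and TPM values were used, and FPKM was not. Expected counts share ambiguous reads among genes, and 19.6% to 23.5% of genes had fractional counts. Counts were rounded, DMHCA libraries 1 and 3 were summed, and edgeR 4.0.16 in R 4.3.3 was run with TMM scaling, filterByExpr (minimum count 10, minimum total 15), the quasi-likelihood F-test and Benjamini-Hochberg adjustment over 19427 genes. SE is the absolute log2 fold change over the square root of F. DESeq2 1.42.0 was an alternative. Ratios used TPM plus a pseudocount of 0.01 and exact permutation tests. Scripts were tested on simulated data. Gene models came from GENCODE M21, which held 99.6% of the gene identifiers. Named genes were the 10 members, up to 4 genes with the smallest unadjusted p in each of 6 pathway lists, genes of those lists in the chromosome 1 cluster, and the 3 genes nearest in pattern. Il1f9, Casp8, Nlrp3, Nlrc4, Ptges, Il6, Cxcl5, Irak1 and Irak4 were named after their values were seen. Members and lists were chosen with earlier results of these data known.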

Additional observations from a re-analysis of the deposited data

How the results depend on the processing

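All 10 members kept the direction of their log2 fold change in every alternative run. Leaving out 1 library at a time gave -1.94 to -1.69 for Il1rn, -0.89 to -0.79 for Il1r1, -2.09 to -1.37 for Il18, -1.56 to -0.72 for Il1b, -1.78 to -0.66 for Il1r2, -1.31 to -0.18 for Il1rl1, -1.49 to -0.03 for Il1rap, 0.08 to 1.1 for Il18bp, 0.06 to 0.75 for Il1a and 0.27 to 0.80 for Il33. Between 1 and 4 members then had an unadjusted p under 0.05: 2 without control 1, 2 without control 2 and 1 without DMHCA 2. The members without overlap numbered 5 to 9, with 9 when DMHCA 2 was left out. In that run 1 DMHCA sample remained, and its value had only to lie outside the control range. The shares of all genes without overlap given above are for the 5 samples, so they are no background for this count of 9. The edgeR fit of that run assumed that the remaining DMHCA sample varied like the controls. Over all genes, 918 to 1800 had an unadjusted p under 0.05 and 0 to 0 an adjusted one. The log2 difference in ratio ranged from -1.01 to 0.03 for Il1rn to Il1a and Il1b, from -0.88 to -0.10 for Il1r2 to Il1r1, from 1.19 to 3.0 for Il18bp to Il18 and from -1.09 to -0.24 for Il1rl1 to Il33, and the first of these reversed, to 0.03, without control 3. With TMM-normalized counts in place of TPM the differences were -0.82, -0.42, 2.19 and -1.01 in that order, against -0.41, -0.57, 2.18 and -0.62.

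The TPM scale for counts of genes was added after seeing the data. It left 4 members without overlap. Genes with an adjusted p under 0.05 numbered 246 with DESeq2 on the 5 samples, 839 with DESeq2 on the 6 libraries and 16 without the filter on low counts. Those with an unadjusted p under 0.05 numbered 2370, 3652 and 2808 in the same settings and 2912 with edgeR on the 6 libraries. The 6-library fits count the nearly identical pair as 2 samples, and the cause of the other differences was not tested. With a replicate block on the 6 libraries 3207 genes had an unadjusted p under 0.05 and 0 an adjusted one. Members with an unadjusted p under 0.05 numbered 6 with that block, 5 with DESeq2 on the 6 libraries and 3 without the filter on low counts. The edgeR fit on the 5 samples gave 4. Same-numbered samples correlated at -0.0585, 0.342 and 0.359 in their deviations from the group means. Control 3 correlated about as much with DMHCA 1, at 0.346, since DMHCA 1 and 3 are nearly identical. The check therefore cannot decide whether the numbers pair the samples. No member had an adjusted p under 0.05 with the block. Counts per library of 24 to 148 for Il1r2 and 34 to 190 for Il1rl1 limit the precision of those genes. The same holds for Il18, with 52 to 64 counts per DMHCA library, and for Il1a, with 60 to 153.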
